A study of Mus musculus with 6 samples.

Results

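A set of 9 acute phase and complement genes (Lbp, C3, Cp, Gc, Lcn2, Saa3, Cfb, Hp and Serping1) was followed across mouse mammary tumour explant cells with and without a knockdown of CdGAP. The 9 genes were picked by symbol out of 41214 genes in the count files, as secreted proteins of the plasma type of which several were already known to be higher in the knockdown, so their difference between the groups is described here and not tested. The shCdGAP group (3 libraries, genotype labelled CdGAP KD) carried a short hairpin RNA against CdGAP, and the shCTL group (3 libraries, genotype labelled WT) carried a control hairpin. All 6 libraries came from cells that express ErbB2, a receptor tyrosine kinase oncogene, and that go back to NMuMG, an epithelial line from normal mouse mammary gland. CdGAP, the product of Arhgap31, is a GTPase-activating protein for Cdc42 and Rac1, and the series title concerns its part in the transcription of E-cadherin with Zeb2. The labels do not say whether a group was 1 clone or a pool, or whether replicates were grown separately. The p-values therefore speak of the variation among 6 libraries, part or all of which may be technical.

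Acute phase proteins are plasma proteins whose synthesis changes in infection and injury, mainly in the liver, under interleukin-6 and interleukin-1 acting through STAT3, C/EBP and NF-kappaB factors. Complement is a cascade of plasma proteases in which cleavage of C3 marks surfaces for removal. Epithelia, the mammary gland among them, also make several of these proteins locally, and Lcn2 and Saa3 in mice are known for expression outside the liver.

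Short motifs of the C/EBP family were searched in promoter windows, because C/EBP factors are textbook inducers of acute phase genes. The windows ran from 250 bases before to 50 after the annotated start and came from RefSeq on GRCm38.p6. They covered 5 of the 9 genes (C3, Cp, Gc, Lcn2 and Saa3), with 2 overlapping windows for Cp. The letters TTGCNNAA, read on both strands, were present in a window of C3, Cp, Lcn2 and Saa3 and absent from the Gc window and from the upstream Cp window. They were present in 10.8% of all 32851 windows in the table. The windows of C3 (chr17:57228087-57228386, minus strand), Cp (chr3:19956999-19957298, plus strand), Lcn2 (chr2:32387690-32387989, minus strand) and Saa3 (chr7:46715627-46715926, minus strand) are shown in lower case with the match in capitals, to set the members that hold it side by side.
C3: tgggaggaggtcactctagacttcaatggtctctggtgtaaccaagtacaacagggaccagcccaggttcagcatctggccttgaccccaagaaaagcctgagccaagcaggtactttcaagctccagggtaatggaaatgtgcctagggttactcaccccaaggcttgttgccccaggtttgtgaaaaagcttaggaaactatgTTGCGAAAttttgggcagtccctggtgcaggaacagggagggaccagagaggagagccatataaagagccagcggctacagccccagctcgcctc
Cp: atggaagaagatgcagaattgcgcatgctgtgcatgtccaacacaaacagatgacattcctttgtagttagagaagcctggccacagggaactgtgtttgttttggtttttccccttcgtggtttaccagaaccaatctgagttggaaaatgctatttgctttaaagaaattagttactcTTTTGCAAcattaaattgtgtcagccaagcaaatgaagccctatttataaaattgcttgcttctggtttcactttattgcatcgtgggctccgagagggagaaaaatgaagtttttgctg
Lcn2: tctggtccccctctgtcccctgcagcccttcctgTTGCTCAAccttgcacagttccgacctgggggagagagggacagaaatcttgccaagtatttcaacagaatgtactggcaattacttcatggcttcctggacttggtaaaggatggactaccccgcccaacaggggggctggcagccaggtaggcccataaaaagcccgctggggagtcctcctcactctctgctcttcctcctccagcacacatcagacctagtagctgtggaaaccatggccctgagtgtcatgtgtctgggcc
Saa3: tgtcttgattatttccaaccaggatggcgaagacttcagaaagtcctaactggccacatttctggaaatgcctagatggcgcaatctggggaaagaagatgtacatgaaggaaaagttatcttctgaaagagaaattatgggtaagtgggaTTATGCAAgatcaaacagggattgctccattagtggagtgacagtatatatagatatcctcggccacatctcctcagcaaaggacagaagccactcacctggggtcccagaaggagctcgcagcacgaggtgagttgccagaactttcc
The match began 45 bases before the annotated start in C3, 70 in Cp, 99 in Saa3 and 216 in Lcn2. A loose NF-kappaB motif (GGG and CC with 5 unspecified bases between) was in windows of C3, Cp, Gc and Lcn2 but also in 50.8% of all windows. A STAT motif (TTCNNNGAA) was in none of the 6 windows and in 8.30% of all windows, and TATAAA was in windows of C3 and Cp and in 13.6% of all. In C3 the TATAAA began 14 bases after the annotated start, and in Cp it lay before the start. None of the C/EBP matches overlapped a match to another motif. A match is a run of letters and not a measured binding site.

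Total counts ran from 19176540 to 26824249 fragments per library. Levels are TMM-scaled CPM, and errors are SDs over 3 libraries. The upper limit that a count of 0 leaves, taken as 3 counts, lay between 0.109 and 0.155 CPM. Arhgap31, the targeted gene, had 1.70, 9.16 and 8.21 CPM in shCdGAP replicates 1 to 3, against 13.2, 14.4 and 15.1 CPM in shCTL replicates 1 to 3. Its groups did not overlap, but the difference was not called (log2 fold change −1.16, adjusted p = 0.19, edgeR quasi-likelihood test). With 1 library left out the log2 fold change ran from −1.51 (without shCdGAP replicate 2) to −0.71 (without shCdGAP replicate 1). The adjusted p of that test was 0.00407 without shCdGAP replicate 1 and up to 0.358 over these fits. ShCdGAP replicate 1 stood apart from its replicates, with a chi-square per degree of freedom over genes of 149.6 and 194 against replicates 2 and 3, where these 2 gave 13.5. Of 10 mammary epithelial markers, 5 averaged at least 1 CPM in shCdGAP and 7 in shCTL, Krt8, Krt18, Krt19 and Cdh1 were abundant, Cldn3 was at 0, and Epcam was at 0 in shCdGAP and at 1.06 to 1.65 CPM in shCTL.

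C3, the central complement protein, was at 153, 299 and 316 CPM in shCdGAP replicates 1 to 3, against 0.722, 4.37 and 5.30 CPM in shCTL replicates 1 to 3. The lowest shCdGAP library lay far above the highest shCTL library, and replicate 1 was the lowest of its group on both sides. The log2 fold change was 6.18 ± 0.738 (SE).

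Cfb encodes complement factor B, the protease that joins C3b to form the C3 convertase of the alternative pathway. It was at 20.6, 9.93 and 9.91 CPM in shCdGAP, against 2.68, 3.31 and 3.46 CPM in shCTL. The groups did not overlap, and shCdGAP replicate 1 was the highest library, with about the same level in the other two. Its log2 fold change of 2.09 ± 0.344 was the smallest of the 8 members with a fitted value, and 1.66 without shCdGAP replicate 1. Of the 2825 exonic bases of Cfb, 2246 (79.5%) are shared on the same strand with Gm20547, an annotated gene that also covers exons of the neighbouring C2. Gm20547 had 0 counts in all 6 libraries, and no option in the file headers assigned a fragment to more than 1 gene. Cfb levels per exonic base therefore carry an uncertainty that the other members do not.

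Serping1, the inhibitor of the C1 protease complex, was barely detected. It had 0, 0 and 1 counts in shCdGAP, against 5, 5 and 1 counts in shCTL. Set as shCTL over shCdGAP, the ratio of levels was 10.4, with a 95% counting interval of 1.52 to 449. The groups overlapped and the gene did not pass the filter on low counts, so it has no fitted fold change.

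Lbp encodes the lipopolysaccharide binding protein, which hands bacterial lipopolysaccharide to CD14. It was at 461, 401 and 471 CPM in shCdGAP, against 2.32, 4.18 and 4.06 CPM in shCTL. This was the widest gap of the 8 members, at a log2 fold change of 6.97 ± 0.275, and also the one with the smallest SE. ShCdGAP replicate 1 was not set apart for this gene, as its level fell between those of replicates 2 and 3.

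Saa3, a serum amyloid A protein, was at 1.16, 6.89 and 12.4 CPM in shCdGAP, against 0.0516, 0.291 and 0.301 CPM in shCTL, and the groups did not overlap. Its log2 fold change was 4.89 ± 1.00, resting on 17 counts in shCTL. Saa1 and Saa2, the liver acute phase members of the same mouse family, had 0 counts in every library (named after their values were seen).

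Lcn2, or lipocalin 2, binds bacterial siderophores and so withholds iron. Its levels were 1.12, 34.0 and 89.4 CPM in shCdGAP, against 0.361, 1.06 and 0.941 CPM in shCTL. ShCdGAP replicate 1, with 25 counts, was close to shCTL replicate 2, with 29 counts, so the separation of the groups at that end is within counting error. The other two knockdown libraries lay far above every control. The log2 fold change of 5.68 had the largest SE of the 8 members, 1.46.

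Cp encodes ceruloplasmin, a copper ferroxidase that helps to load iron onto transferrin. It was at 1221, 674 and 576 CPM in shCdGAP, against 56.1, 119 and 115 CPM in shCTL, with the highest and the lowest of all 6 values both in libraries numbered 1. The log2 fold change was 3.09 ± 0.414. Hp encodes haptoglobin, which captures free haemoglobin. It was at 4.16, 10.4 and 8.76 CPM in shCdGAP, against 0.258, 0.546 and 0.376 CPM in shCTL, at a log2 fold change of 4.26 ± 0.47. Gc encodes the vitamin D binding protein, which also binds actin monomers released by damaged cells. Its levels were 310, 491 and 431 CPM in shCdGAP, against 5.78, 25.5 and 22.6 CPM in shCTL, at a log2 fold change of 4.51 ± 0.58. For each of Cp, Hp and Gc the groups did not overlap.

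**Figure D1:**
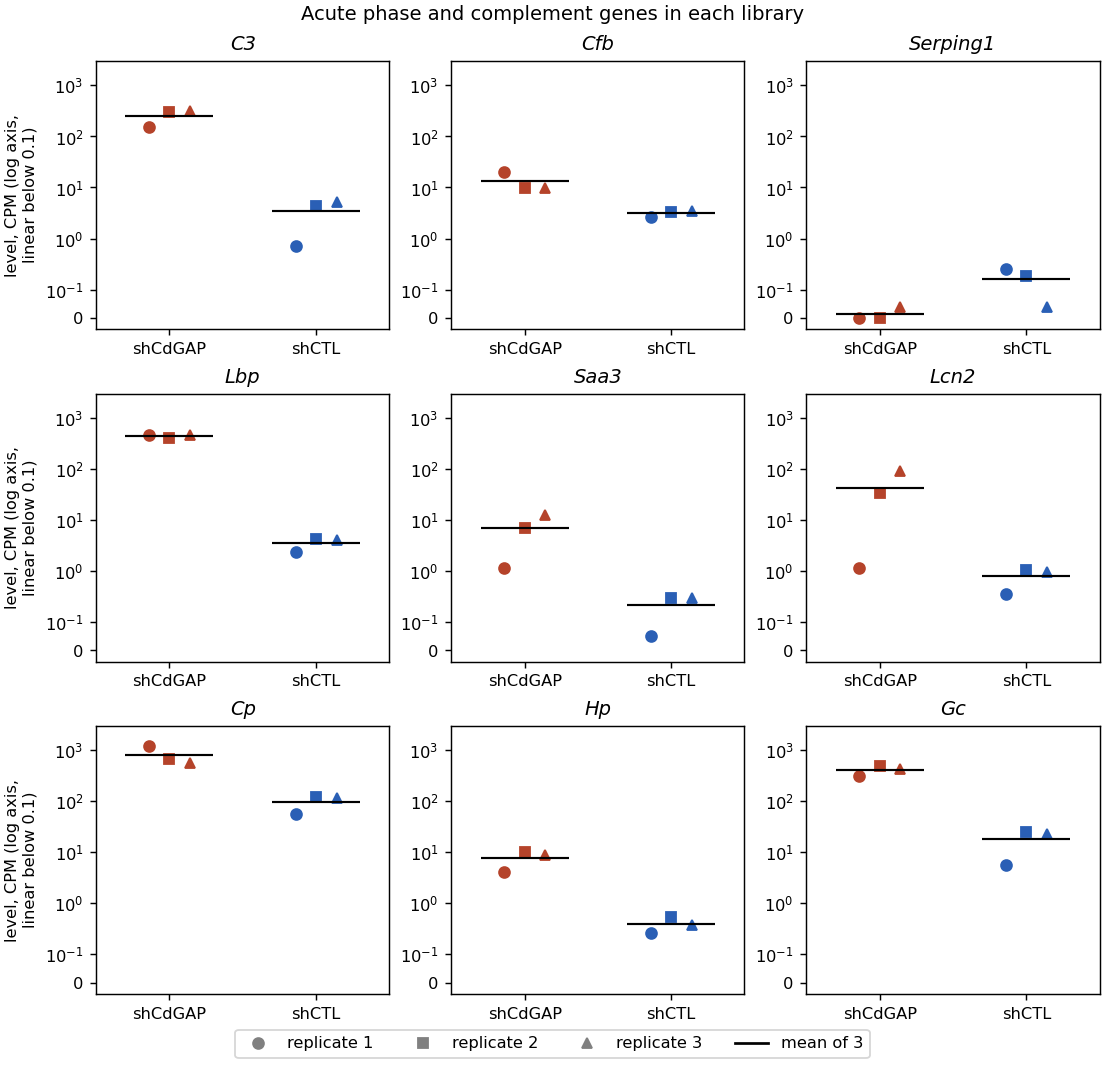
Level of each of the 9 genes in each library, as TMM-scaled CPM on a log axis that is linear below 0.1, with shCdGAP on the left and shCTL on the right of each panel; symbols are replicate numbers and bars are means of 3 libraries. Lbp sits between 401 and 471 CPM in shCdGAP, while Lcn2 runs from 1.12 to 89.4 CPM there, and Serping1 is near 0 throughout.

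In 8 of the 9 genes every shCdGAP library was higher than every shCTL library. Such an order held for 21.7% of 13483 tested genes, and because the genes were chosen for it nothing is read from the count. In bulk RNA, a larger share of cells with a transcript and more transcript per cell cannot be told apart. Together the 9 genes took 0.210%, 0.192% and 0.186% of all counts in shCdGAP replicates 1 to 3, against 0.00693%, 0.0162% and 0.0155% in shCTL replicates 1 to 3. Cp alone supplied most of the sum in shCTL, and without it the shares ran from 0.0918% to 0.130% in shCdGAP, against 0.00126% to 0.00404% in shCTL.

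Levels per kilobase of exon (RPKM, from the same scaled CPM) put the genes in an order. In shCdGAP, Gc led at 227 ± 50.9 RPKM and ranked 222 of the 13483 tested genes. Lbp followed at 91.9 ± 7.81, Cp at 86.1 ± 36.3 and C3 at 49.8 ± 17.5 RPKM. Lcn2 (18.0 ± 19.4), Saa3 (12.9 ± 10.6), Hp (5.78 ± 2.41) and Cfb (4.77 ± 2.17) came after, and Serping1 was last. Only Gc above Lbp and Cfb above Serping1 were neighbours whose libraries did not overlap. Within each shCdGAP library C3 was also above Lcn2 (29.7 against 0.485, 58.1 against 14.8 and 61.5 against 38.9 RPKM). The other neighbours between Lbp and Cfb changed order from library to library, so their places are not fixed. Genes further apart did separate. The lowest Lbp library (83.0 RPKM) lay above the highest of C3 (61.5 RPKM) and of every gene after it. The lowest Cp library (60.2 RPKM) lay above the highest of Lcn2 (38.9 RPKM) and of every gene after it. If Cfb is set against its 579 unshared bases alone, its level is 23.3 CPM per kilobase in shCdGAP and 5.44 in shCTL, which in shCdGAP would place it between C3 and Lcn2. In shCTL, Cp (10.1 ± 3.67 RPKM) and Gc (9.90 ± 5.87 RPKM) overlapped and stood above the others, at ranks 5641 and 5711. The rest lay between 0.0685 RPKM for Serping1 and 1.12 RPKM for Cfb. Lbp moved furthest in rank, at 639 in shCdGAP and 11630 in shCTL.

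The spread inside a group was not used to choose the genes, and it differed widely among them. Lcn2 spanned a 55.6-fold range of CPM + 0.5 over the 3 shCdGAP libraries, and none of the 10235 genes of at least 5 CPM in that group had a wider one. Saa3 spanned 7.79-fold, a range exceeded by 1.71% of those genes, whereas the median gene spanned 1.38-fold. Lbp was at the other end with 1.17-fold, exceeded by 77.8%. In shCTL, where 10248 genes had at least 5 CPM, Gc spanned 4.14-fold and 2 genes had a wider range. C3 spanned 4.75-fold there but averaged 3.46 CPM, so it was not ranked. Cp spanned 2.11-fold there, exceeded by 0.673% of genes, against a median of 1.16-fold.

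**Figure D2:**
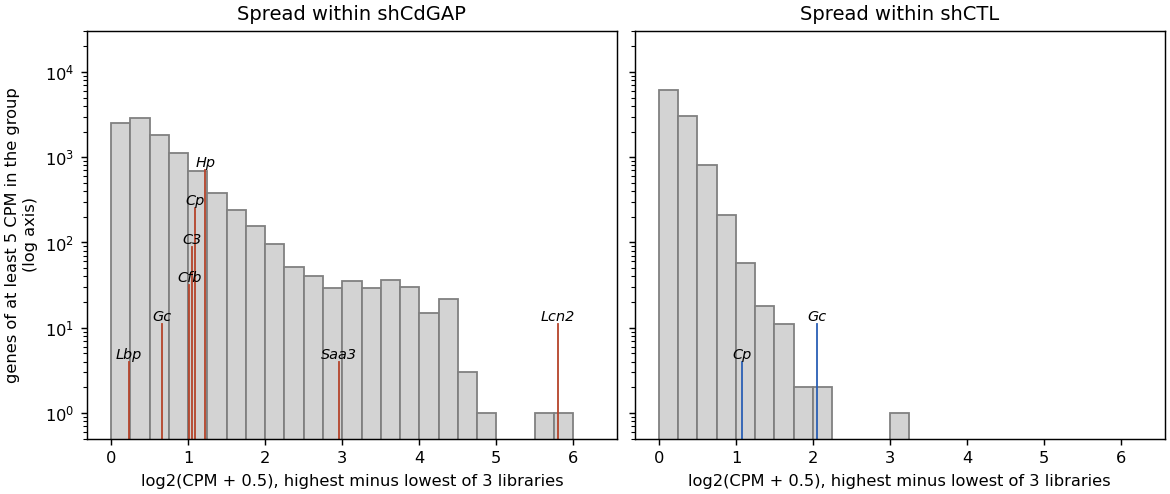
Number of genes (log axis) by the difference between the highest and lowest of 3 libraries in log2(CPM + 0.5). Spread within shCdGAP is on the left and within shCTL on the right. Only genes of at least 5 CPM in that group are counted, and vertical lines mark the members among them. Lcn2 lies at the far right of the shCdGAP panel, and Gc near the end of the shCTL panel.

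Replicate 1 was often the lowest library of its group. This held in shCTL for 8 of the 9 genes, with Serping1 the exception, and in shCdGAP for 5 (C3, Gc, Lcn2, Saa3 and Hp), all of which were also lowest in shCTL replicate 1. Among 10334 genes of at least 5 CPM on average, replicate 1 was lowest in shCTL for 44.4%, in shCdGAP for 42.5% and in both for 26.2%. These shares are for more abundant genes than most members. Saa3, Hp and Serping1 averaged under 5 CPM, and in shCTL only Cp and Gc reached it. The order of low members there rests on few counts, such as 1, 8 and 8 for Saa3. Arhgap31 was also lowest in replicate 1 of each group, and whether this bears on the members was not tested.

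Differences between same-numbered libraries were taken on the log2(CPM + 0.5) scale, which understates the change of low genes. How often number 1 gives the largest or smallest difference over all tested genes was not computed. The orders are therefore described and not read as particular to the members. For Cp the difference was 4.43 between the libraries numbered 1, 2.50 for number 2 and 2.32 for number 3. Gc (5.63, 4.24 and 4.22), C3 (6.97, 5.94 and 5.77), Lbp (7.35, 6.42 and 6.69) and Cfb (2.73, 1.45 and 1.39) also had their largest difference at number 1. The opposite held for Lcn2 (0.91, 4.47 and 5.96), Saa3 (1.59, 3.22 and 4.02) and Hp (2.62, 3.38 and 3.40), which had their smallest difference there. The shCTL levels of Saa3 and Hp were near or under the 0.5 CPM added, with 1 and 5 counts in shCTL replicate 1. How far number 1 lay below numbers 2 and 3 for Saa3 and Hp therefore depends on that constant.

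**Figure D3:**
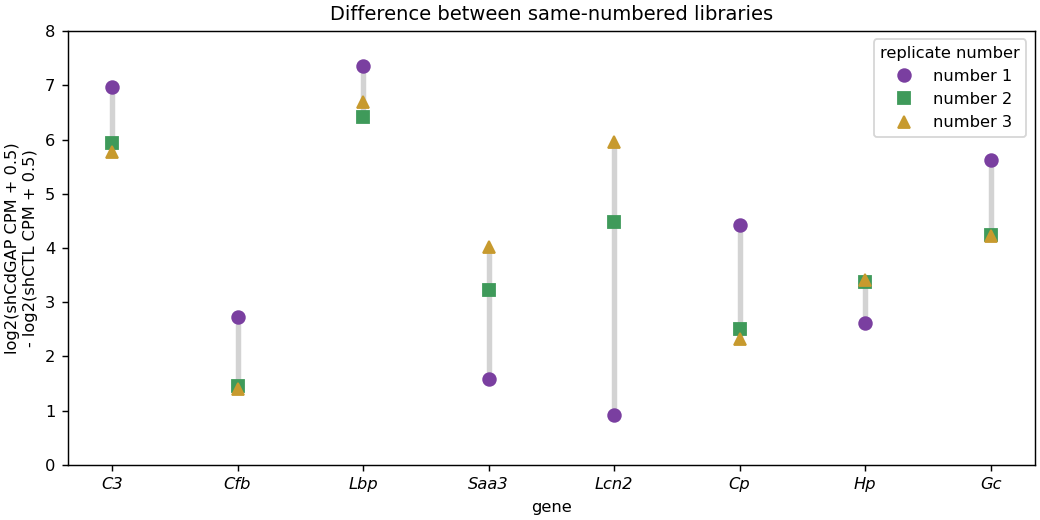
Difference in log2(CPM + 0.5) between the shCdGAP and shCTL library of the same replicate number, for the 8 genes with a fitted fold change; symbols are numbers 1 to 3 and grey bars join them. Number 1 is the highest point for C3, Cfb, Lbp, Cp and Gc and the lowest for Saa3, Lcn2 and Hp.

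For each member the most similar centred profile over the 6 libraries was sought among tested genes of at least 5 CPM on average. The measure was the root mean square (RMS) difference in log2(CPM + 0.5). It includes the difference between the groups, with which the members were chosen. A near gene is therefore largely one with a like fold change, and shared regulation was not tested. Saa3 was nearest to Cxcl5, a neutrophil chemokine gene (RMS 0.214), which averaged 1564 ± 1193 CPM in shCdGAP and 165 ± 26.8 CPM in shCTL. Lcn2 had the most distant of the 8 nearest genes, the inhibin subunit gene Inhbb at 0.915. C3 was nearest to Foxj1, a ciliogenesis factor (0.534), and Gc to Cyp1b1, a cytochrome P450 (0.380). Lbp was nearest to the epithelial ETS factor gene Ehf (0.325), Cp to Spon2 (0.244), Hp to Auts2 (0.243) and Cfb to the retinal reductase gene Dhrs3 (0.0958). Among the members themselves, the closest were Saa3 and Hp (0.586), Cp and Cfb (0.668) and Lbp and C3 (0.671). The added 0.5 CPM flattens the profile of a gene that averaged less than this in shCTL. That was so for Saa3 (0.215 CPM), Hp (0.393 CPM) and the nearest genes Ehf (0.305 CPM) and Inhbb (0.132 CPM). Matches that involve these genes, Saa3 with Cxcl5 among them, therefore depend on that constant.

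On GRCm38 (Ensembl), the members lie on 6 chromosomes as protein-coding genes: Lcn2 (chr2:32384633-32387797), Serping1 (chr2:84765387-84775444), Lbp (chr2:158306493-158332852), Cp (chr3:19957054-20009145), Gc (chr5:89417511-89457898), Saa3 (chr7:46711998-46715676), Hp (chr8:109575130-109579172), Cfb (chr17:34856374-34862518) and C3 (chr17:57203970-57228136). Of 18 nearest tested genes, 1 on each side of each member, 3 were called higher, 2 lower and 13 neither, by edgeR's quasi-likelihood test at an adjusted p under 0.05, which called 10.4% of all tested genes higher and 11.4% lower. The 3 that rose were D630003M21Rik beside Lbp (11.9 ± 0.591 CPM in shCdGAP and 0.165 ± 0.104 CPM in shCTL, 77.3 kb away), the bicarbonate transporter gene Slc4a4 beside Gc (160.5 ± 46.3 CPM in shCdGAP and 46.0 ± 3.06 CPM in shCTL, 178 kb away) and Txnl4b beside Hp (10.6 ± 1.05 CPM in shCdGAP and 6.22 ± 0.94 CPM in shCTL, 1.08 kb away). The 2 that fell were 1110008P14Rik beside Lcn2 (log2 fold change −0.68 ± 0.183) and Ube2l6 beside Serping1 (−1.04 ± 0.206). Named after their positions and values were seen, Gpr108 beside C3 and Hps3, whose exons overlap those of Cp on the opposite strand, were not called (adjusted p = 0.0535 and 0.99).

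Other complement genes were tested in the same fit, with adjusted p-values over all 13483 genes. The list was drawn up with earlier results of these data known, so its counts are description. Of 44 listed, 14 had 0 counts in all libraries and 21 passed the filter. Of the 21, Cfi (2 counts in shCTL) passed only through shCdGAP and Hc (10 counts in shCdGAP) only through shCTL. Among those 21, 8 rose and 3 fell, where 10.4% of all tested genes rose and 11.4% fell, and the median log2 fold change was 0.94, against 0.01 over all tested genes. Clu, encoding the chaperone clusterin that blocks the terminal complement complex, was the most abundant of those named, at 1193, 1013 and 1009 CPM in shCdGAP, against 290, 350 and 374 CPM in shCTL (adjusted p = 0.000759). C1s1, the effector protease of the C1 complex, had 188, 50.2 and 35.8 CPM in shCdGAP, against 1.44, 3.06 and 3.76 CPM in shCTL (adjusted p = 0.00664).

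The genes that fell were Hc, which encodes complement C5 in mice, Fcna, encoding ficolin A of the lectin pathway, and C3ar1, the receptor for the C3a fragment. Hc averaged 0.143 ± 0.0479 CPM in shCdGAP and 0.896 ± 0.207 CPM in shCTL. Fcna averaged 0.325 ± 0.415 CPM in shCdGAP and 3.62 ± 0.63 CPM in shCTL. C3ar1 averaged 1.43 ± 0.779 CPM in shCdGAP and 5.32 ± 0.322 CPM in shCTL. The adjusted p was 0.00489 for Hc, 0.0208 for Fcna and 0.0226 for C3ar1. The counts depended on the control libraries: 5, 3 and 4 complement genes rose without shCTL replicate 1, 2 and 3, and 1 fell in each of these fits and without shCdGAP replicate 2. The Fcna and C3ar1 calls were both lost without any 1 of these 4 libraries (adjusted p up to 0.0768 and 0.0816). The C4b count (1.75 ± 0.876 CPM in shCdGAP and 0.405 ± 0.0731 CPM in shCTL, called higher) is uncertain, since C4a is a near-identical copy, and its call was lost without any 1 shCTL library (adjusted p up to 0.0877).

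Other acute phase and plasma protein genes moved upward where they were called. Of 44 listed, 9 had 0 counts in all libraries and others were too low to test. Named after their values were seen, these include Crp (16 counts in shCdGAP and 0 in shCTL), Fgg (101 and 0), Orm1 (9 and 14) and Orm3 (0 and 24). Of the 18 tested, 11 rose and 0 fell in the edgeR test, where 10.4% of all tested genes rose and 11.4% fell. None fell at an unadjusted p under 0.05 either. DESeq2 called 13 higher and 0 lower, and over all genes it called 14.1% higher and 14.5% lower. The median log2 fold change of the 18 was 1.52. The list was drawn up with earlier results of these data known. Fga, Ttr and Steap4, with 3, 4 and 3 counts in shCTL, passed the filter only through shCdGAP. A gene near 0 in shCTL could enter the test only if it was higher in shCdGAP, so nothing is read from the count. Alb, encoding serum albumin, which falls in plasma in the acute phase, had 13.8, 15.2 and 6.15 CPM in shCdGAP, against 0.671, 0.946 and 0.564 CPM in shCTL (log2 fold change 3.99 ± 0.439, adjusted p = 0.00178). Rbp4, the retinol carrier, had 329, 273 and 251 CPM in shCdGAP, against 137, 142 and 144 CPM in shCTL (adjusted p = 0.00286). Trf, encoding the iron carrier transferrin, averaged 29.0 ± 13.7 CPM in shCdGAP and 4.19 ± 0.758 CPM in shCTL (adjusted p = 0.00377). Of the Trf exonic bases 63.5% are shared on the same strand with Gm20425, which had 0 counts. Among the 11, chosen after their values were seen, were also Hpx, the haem carrier hemopexin (64.4 ± 11.4 CPM in shCdGAP and 23.4 ± 5.53 CPM in shCTL), and Fga, a fibrinogen chain with 149 counts in shCdGAP and 3 in shCTL (ratio 52.4, interval 17.6 to 257). Alb, Trf, Rbp4 and transthyretin (Ttr) encode negative acute phase proteins, known in humans to go down in plasma during inflammation, and all 4 were among the genes that rose. Without shCTL replicate 1, 2 or 3 the risen genes numbered 7, 6 and 6, and the Fga call was lost in each of these and without shCdGAP replicate 2 (adjusted p up to 0.0958).

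**Figure D4:**
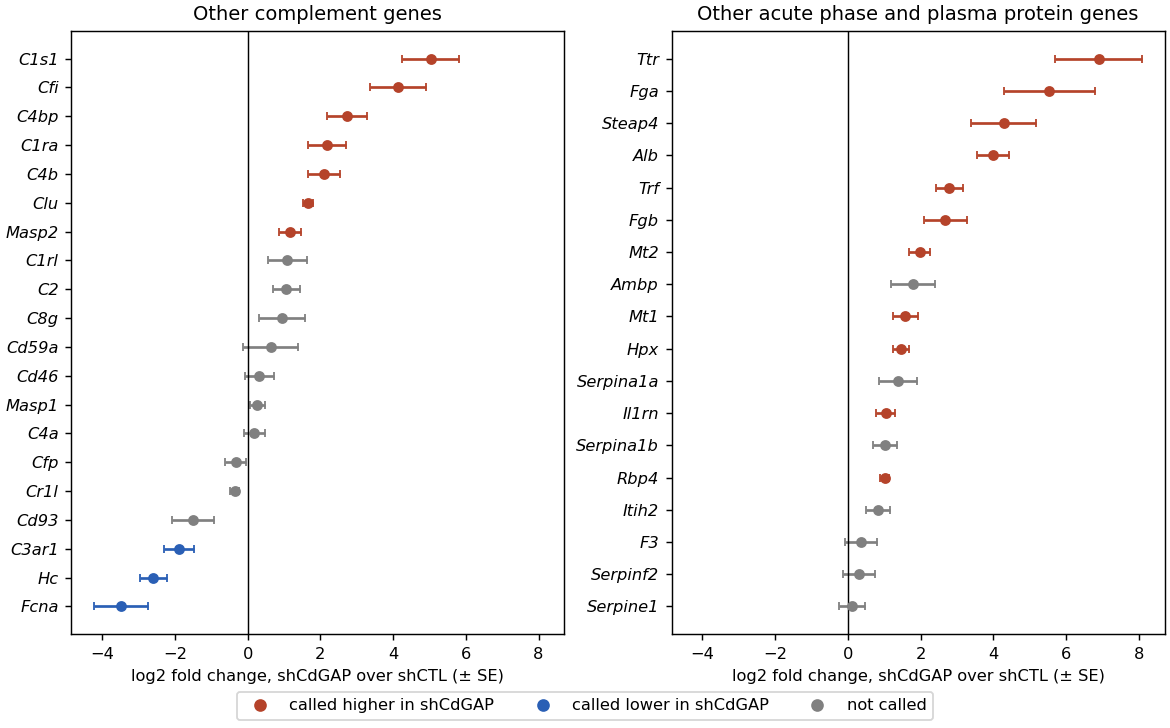
Fitted log2 fold change (shCdGAP over shCTL) with its SE for 20 of the 21 tested complement genes on the left and the 18 tested acute phase and plasma protein genes on the right, none of them members; colours give the edgeR call at an adjusted p under 0.05. The genes drawn as called higher number 7 in complement and 11 in the acute phase list, and Hc, Fcna and C3ar1 are called lower.

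Genes that handle what the member proteins bind formed a further list. Of 18 tested, 1 rose, 3 fell and 14 were not called, and the median log2 fold change was 0.03. The share called, 22.2%, was close to the 21.7% called over all tested genes. Slc40a1, which encodes ferroportin, the iron exporter whose iron ceruloplasmin oxidises, had 236, 133 and 117 CPM in shCdGAP, against 22.2, 19.2 and 20.1 CPM in shCTL (log2 fold change 2.98 ± 0.289, adjusted p = 0.00119). Cubn, encoding cubilin, which takes up the vitamin D binding protein in the kidney, averaged 2.70 ± 0.211 CPM in shCdGAP and 6.23 ± 0.397 CPM in shCTL (adjusted p = 0.00499). Hephl1, a ferroxidase gene related to Cp, had 1 count in shCdGAP and 34 in shCTL (ratio of shCTL over shCdGAP 32.2, interval 5.41 to 1311). Irak3, an inhibitor of Toll-like receptor signalling, averaged 1.99 ± 0.402 CPM in shCdGAP and 4.44 ± 0.424 CPM in shCTL, and its call was lost without any 1 shCTL library (adjusted p up to 0.0683). With shCdGAP replicate 1 left out 2 rose and 5 fell, and with shCdGAP replicate 3 left out 2 rose. Cd14, the receptor to which Lbp delivers lipopolysaccharide, was named after its values were seen, at 149.6 ± 54.9 CPM in shCdGAP and 150.3 ± 5.31 CPM in shCTL (log2 fold change −0.01 ± 0.275).

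Among 33 tested genes of the signalling and transcription factors that act on acute phase genes, inhibitors included, 8 rose, 3 fell and 22 were not called, with a median log2 fold change of 0.19. Over all tested genes 10.4% rose and 11.4% fell. The cytokine genes Il6 (3 counts in shCdGAP and 6 in shCTL), Il1a (1 and 6), Il1b (0 and 1) and Tnf (4 and 0) were listed but too low to test. They were named after their values were seen. The 8 that rose include Nfkbia, which encodes an inhibitor of NF-kappaB (log2 fold change 0.72, adjusted p = 0.00966 in the edgeR test). Its call was lost without shCTL replicate 2. The NF-kappaB subunit genes Nfkb1 (0.49, adjusted p = 0.0245), Rela (0.52, 0.0113) and Relb (0.78, 0.00852) also rose. Leaving 1 library out lost the call in 5 fits for Nfkb1 and in 2 each for Rela and Relb. Rel and Nfkbiz were not called (adjusted p = 0.761 and 0.226). All of these were named after their values were seen. Il6st, which encodes gp130, the shared receptor chain of the interleukin-6 family, averaged 132 ± 8.19 CPM in shCdGAP and 74.1 ± 0.943 CPM in shCTL (adjusted p = 0.00191). Nfkb2 averaged 137 ± 15.3 CPM in shCdGAP and 74.6 ± 4.70 CPM in shCTL (adjusted p = 0.00395). Foxa1, a pioneer factor, averaged 7.12 ± 1.14 CPM in shCdGAP and 32.2 ± 5.88 CPM in shCTL (adjusted p = 0.00103). Lifr, the receptor gene for leukaemia inhibitory factor, averaged 0.772 ± 0.0811 CPM in shCdGAP and 4.99 ± 1.71 CPM in shCTL, and Il17ra, an interleukin-17 receptor gene, 26.2 ± 3.75 CPM in shCdGAP and 53.4 ± 3.86 CPM in shCTL (adjusted p = 0.00234 and 0.0043). Stat3 (72.4 ± 24.1 CPM in shCdGAP and 68.0 ± 5.58 CPM in shCTL) and Cebpb (46.1 ± 5.14 CPM in shCdGAP and 36.1 ± 9.66 CPM in shCTL), named after their values were seen, were not called (adjusted p = 0.826 and 0.282). Without shCTL replicate 2, 3 of these genes rose, and without shCdGAP replicate 1, 5 fell. With the replicate number as a block, 4 calls in the lists were lost: Masp2 (adjusted p = 0.0697), Fgb (0.0573), Il1rn (0.0527) and Nfkb1 (0.0597).

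Markers of cells that make these proteins in the body were read beside the members. Of 10 hepatocyte markers, 6 averaged at least 1 CPM in shCdGAP and 3 in shCTL, and their summed level ran from 389 to 682 CPM in shCdGAP and from 509 to 625 CPM in shCTL, nearly all of it Hnf4a and Apob. Of these 10, Alb, Fgb, Serpina1a and Ttr were also in the acute phase list, and Hnf4a was also among the signalling and transcription factor genes. Apoa1 stayed under 1 CPM in every library, and Cyp2e1 and Tat were at or near 0. Of 10 macrophage markers, 5 averaged at least 1 CPM in shCdGAP and 4 in shCTL, with sums of 118 to 241 CPM in shCdGAP and 252 to 307 CPM in shCTL, most of it Cd14 and Mrc1. Adgre1 and C1qa had 0 counts in all 6 libraries and Ptprc stayed at or under 0.358 CPM. Neutrophil markers summed to 4.64 to 6.93 CPM in shCdGAP and 29.8 to 50.2 CPM in shCTL, most of it S100a8 in shCTL; 2 of 10 averaged at least 1 CPM in each group, and Mpo, Csf3r and Camp were at 0. Fibroblast markers summed to 3.41 to 7.11 CPM in shCdGAP and 5.42 to 6.55 CPM in shCTL, with 2 of 10 at 1 CPM or more in each group and Lum, Thy1 and Dpt at 0. Endothelial markers summed to 0.317 to 0.983 CPM in shCdGAP and 2.63 to 2.86 CPM in shCTL, with 0 of 10 in shCdGAP and 1 in shCTL at 1 CPM or more and Emcn and Cldn5 at 0. Adipocyte markers summed to 13.0 to 30.2 CPM in shCdGAP and 13.5 to 17.1 CPM in shCTL, with 2 of 10 in shCdGAP and 4 in shCTL at 1 CPM or more and Plin1 and Cfd at 0. The part of these cell types in the members' levels was not tested.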

How the data were processed

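Total RNA from 6 libraries was sequenced, 3 shCdGAP and 3 shCTL, and the deposited files held, for each gene, a raw count of fragments and a summed exon length. Per the file headers, the authors counted read pairs with featureCounts 1.4.6 (strand setting 2, both ends aligned, chimeric pairs left out) from TopHat output, using genes of Ensembl release 77 (GRCm38). The submitters' processing notes also name Trimmomatic 0.30, CASAVA 1.8, DESeq, Cuffdiff 2.2.1 and TopHat2 2.0.14. A table of gene IDs and symbols named 40254 of 41214 gene IDs.

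Counts were filtered with filterByExpr (minimum count 10, minimum total 15), scaled by TMM and tested with the quasi-likelihood F test of edgeR 4.0.16 in R 4.3.3, with Benjamini-Hochberg adjustment over 13483 genes and a threshold of 0.05. The SE is the absolute log2 fold change over the square root of F. The alternatives were the DESeq2 1.42.0 test, other scalings, other filters on low counts, the replicate number as a block, and each library left out. The fit was first run on simulated counts with known changes. RPKM is scaled CPM per kilobase of the deposited length. Intervals are exact binomial and, like floors, cover counting error only.

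The members and the gene lists were chosen with earlier results of these data known. Genes named from a list are the 3 risen and 3 fallen with the smallest adjusted p, the nearest profile of each member, Arhgap31 and genes overlapping a member. Some genes that this rule names are counted in their lists but not reported here. The closest replicates, shCTL 2 and 3, gave a chi-square over genes of 3.00 for each degree of freedom, so each library counted once. Deviations from group means correlated at 0.40, 0.35 and 0.30 between libraries numbered 1, 2 and 3, all above 0.1. Numbers 2 and 3 crossed at 0.31 and 0.23. The check thus set number 1 apart in both groups. Deviations from a mean of 3 libraries sum to 0, so it cannot show that 2 pairs with 2 and 3 with 3. Any pairing by number is read from the data and not the labels.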

Additional observations from a re-analysis of the deposited data

How the results depend on the processing

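None of the 8 members with a fitted value changed direction under any alternative. They were chosen with this difference known and their groups did not overlap, so that outcome was close to fixed. Of 117 member log2 fold changes, 114 moved by less than 1 SD between replicates. That margin is wide for fits that share most or all of their libraries, so little is read from it. Cfb was 1.66 without shCdGAP replicate 1 (1.66 to 2.27 with 1 library left out), and without both libraries numbered 1, an alternative chosen after seeing the data, it was 1.56 and Cp was 2.43. With a library left out, Lcn2 ran from 4.44 to 6.24 and Saa3 from 4.13 to 5.38; with the replicate block Lcn2 was 5.22 and Cfb 1.99.

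With 1 library left out, called genes over all tested ran from 538 higher and 856 lower (without shCTL replicate 2) to 2753 higher and 3032 lower (without shCdGAP replicate 1), complement genes 3 to 9 higher and 1 to 4 lower, acute phase genes 6 to 14 higher and 0 lower, ligand handling genes 1 to 2 higher and 2 to 5 lower, and signalling and transcription factor genes 3 to 9 higher and 3 to 5 lower. Without both libraries numbered 1 they were 3475 and 3640 over all genes, 3 and 6 for ligand handling, and 9 signalling and transcription factor genes were lower. Requiring a mean of at least 10 CPM, which removes genes, left 869 higher and 822 lower over all genes, 2 and 0 complement genes, 5 acute phase genes higher and 0 ligand handling genes lower. With no filter on low counts 1 acute phase gene was called lower. The replicate block gave 1277 higher and 1468 lower over all genes; of 37 list genes called, 33 kept their call with it, and all 37 with DESeq2 and with each of the 3 other scalings. The causes were not tested. At this depth a level under 0.109 to 0.155 CPM cannot be told from 0.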
